A study of Mus musculus with 15 samples.

Results

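The transcriptome of whole testis from Con mice was described from 3 RNA-seq libraries, Con 1, Con 2 and Con 3, out of 15 libraries in 5 groups. The members were all libraries that carry Con in their labels, and every gene ID of the deposited table was ranked by its mean FPKM (fragments per kilobase of transcript, scaled to the mapped fragments of the library) in them. The study knocked down muscarinic acetylcholine receptors in the testis of ICR mice, an outbred strain, with injected shRNA viruses, and the other groups are labelled M1, M3, M5 and MNC. The Con libraries are labelled with the treatment Con, the genotype control, the strain ICR and the tissue testis. The paper describes injection of male mice at 5 weeks of age, with testes collected days later. Neither the age of the Con mice nor whether they were handled like the injected mice is given separately in the sources used here. Nothing says that the libraries came from separate animals, so each SD below measures the spread between these libraries, which may be technical. The RNA came from tissue, not from sorted cells, so fewer cells of a type and less RNA per cell cannot be told apart.

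The testis makes sperm in the seminiferous tubules. Spermatogonial stem cells at the tubule wall divide and differentiate, spermatocytes pair and recombine their chromosomes in meiosis, and haploid round spermatids then elongate, build a tail and an acrosome, and replace their histones first with transition proteins and then with protamines. Sertoli cells nurse the germ cells inside the tubule, peritubular myoid cells surround it, and Leydig cells between the tubules make testosterone. Transcription stops before the spermatid has finished its shape, so many spermatid mRNAs are stored and translated later.

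The table held 23510 gene IDs, of which 21143 matched the RefSeq gene table by number and carry a symbol here. A further 2208 IDs carry a label that begins with BGI in place of a gene number and held 2.56% of the summed FPKM. Another 159 IDs had no match. Summed FPKM was 474442, 470243 and 483232 in Con 1, Con 2 and Con 3. Pearson's r between libraries, across all genes on the log2(FPKM + 1) scale, lay between 0.992 and 0.996. Genes are not independent replicates, and the r is a description only. Read depth was not given with the table. In genes with a mean under 1 FPKM and 1 annotated transcript of at most 1000 bases, FPKM was multiplied by the transcript length in kilobases. Of such products above 0, at most 311 in a library, 36, 36 and 41 lay in Con 1, Con 2 and Con 3 between 0.04 and 0.05, the fullest bin of that width in each library. The median of the products under 0.06, a limit chosen after these values were seen, was 0.0407, 0.0432 and 0.0411, with lower quartiles of 0.0278, 0.02745 and 0.0322. Taken as the worth of 1 fragment, these medians correspond to depths of about 24.6, 23.2 and 24.3 in units of 1000000 mapped fragments, and limits of 0.05 and 0.1 gave depths between 20.9 and 25.7. On that reading, products at the lower quartile would be less than 1 fragment, so the medians depend on the limit. The lengths are those of GENCODE and may not be the authors' own. These depths are thus rough.

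Expression was concentrated in a small part of the genes. The 10 top genes held 5.42% of the summed FPKM, the top 100 held 18.7%, and 874 genes were enough to reach 50%. A mean FPKM of 1 or more was found for 14383 IDs, of 100 or more for 990 and of 1000 or more for 24. The share in the 10 top genes differed between libraries, with 5.37% in Con 1, 4.50% in Con 2 and 6.37% in Con 3.

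The packaging proteins of sperm DNA led the ranking. Prm1, a protamine that condenses DNA in the sperm head, had 4559 FPKM in Con 1, 2951 in Con 2 and 5954 in Con 3. Prm2, the other protamine, had 3060, 1915 and 4656 FPKM in the same order. The transition protein gene Tnp2 had 3795, 2614 and 4710 FPKM, and Tnp1 had 2443, 1666 and 3293 FPKM. All 4 genes were lowest in Con 2 and highest in Con 3. Prm1, Prm2, Prm3 and Tnp2 lie together on chromosome 16 (GRCm38, 10787935 to 10796823), and these 8889 bases held 2.44% of all summed FPKM, with 1.62% in Con 2 and 3.22% in Con 3. Prm3, the acidic relative in the cluster, was far below its neighbours at 189 ± 33.1 FPKM (SD, n = 3).

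**Figure D1:**
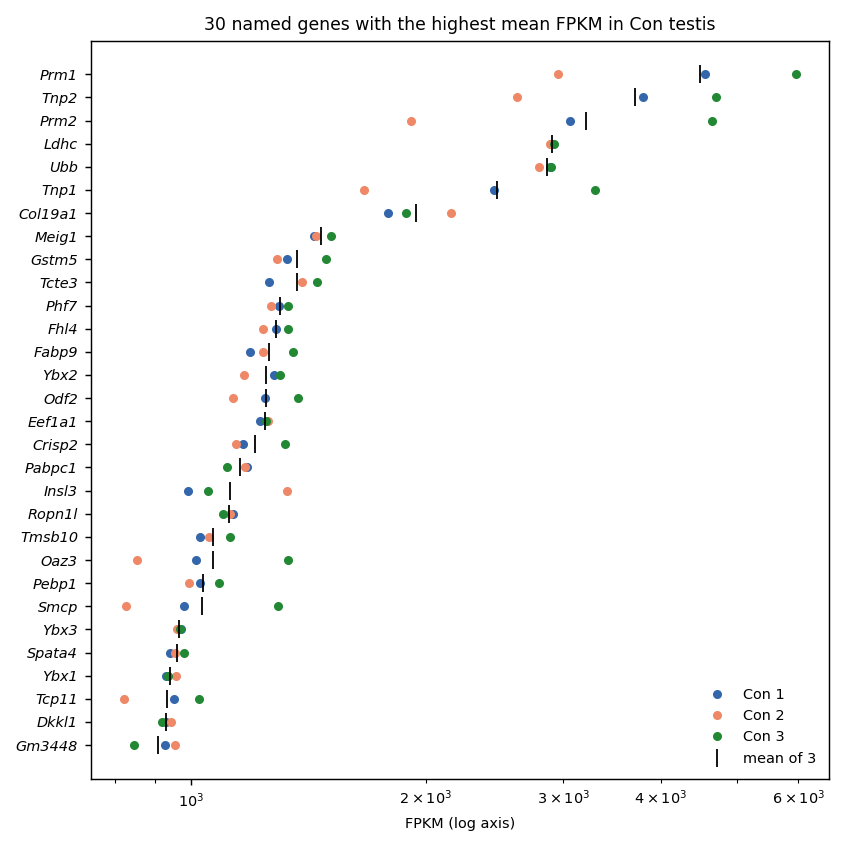
The 30 named genes with the highest mean FPKM, 1 per line, with FPKM on a log axis; coloured points are the 3 Con libraries and black ticks the mean. The points of Prm1, Prm2, Tnp1 and Tnp2 lie far apart, with Con 2 lowest and Con 3 highest, while those of Ldhc (2888 to 2920 FPKM) almost coincide.

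Most other top genes varied less between libraries. Among them Oaz3 and Smcp varied most, with an SD of 22.7% and 22.9% of the mean and the same order of libraries, beside 28.4% for Tnp2. Ldhc, the lactate dehydrogenase of germ cells (chromosome 7, 46861263 to 46878147), had 2896, 2888 and 2920 FPKM, and its mean of 2901 ± 17.0 (SD, n = 3) placed it at rank 4. Ubb, which encodes a chain of ubiquitin units, had 2858 ± 55.4 FPKM, and 48.1% of its 50-base words also occur in transcripts of other genes, so part of its value is uncertain. Meig1, needed for the assembly of the sperm tail, had 1466 ± 40.4 FPKM, and Gstm5, a glutathione transferase, had 1369 ± 106. The gene at rank 7 was Col19a1, a collagen (chromosome 1, 24257683 to 24587922), with 1787, 2153 and 1886 FPKM. Its level was above that of Sparc (225 ± 8.14 FPKM), the matrix protein that led the fibroblast list.

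Most of the remaining genes of the top 30 were placed in a few groups. Tail and head proteins were Tcte3 (1366 FPKM), Odf2 (1249), Crisp2 (1209), Ropn1l (1118), Oaz3 (1067), Smcp (1033), Spata4 (959), Tcp11 (933) and Dkkl1 (931), all as means of 3 libraries. RNA storage and translation genes were Ybx2 (1249), Eef1a1 (1244), Pabpc1 (1156), Ybx3 (966) and Ybx1 (941), of which the Y-box proteins bind and store mRNA in germ cells. Phf7 (1300), Fhl4 (1286), Fabp9 (1259), Tmsb10 (1069) and Pebp1 (1036) were not placed in these groups. Other genes share 45.7% of the 50-base words of Fabp9, 39.4% of those of Eef1a1, 27.0% of those of Tmsb10 and 22.1% of those of Pebp1. Part of the values of these genes is thus uncertain. Insl3, the peptide hormone of Leydig cells (chromosome 8, 71689252 to 71690577), was the highest gene of the somatic lists with 993, 1328 and 1052 FPKM and had rank 19, and 61.8% of its 50-base words also lie in transcripts annotated to the overlapping Jak3. Of the words of Tcte3, 95.8% also occur in other genes and 89.1% in Gm3448 (909 FPKM), while 25.6% of the words of Gm3448 occur in other genes, so the separate values of both are uncertain.

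The promoters of Prm1, Tnp1, Tnp2 and Prm2 are shown because these genes lead the elongating spermatid list. Those of Gsg1, Akap4, Hmgb4 and Gapdhs were added as examples of the letters described next, so the share of matches among the runs shown is not that of the list. CREM, a transcription factor of round spermatids, binds the cAMP response element TGACGTCA and related letters. The first 6 promoters below hold TGACTTCA or TGATGTCA on either strand, in capitals, and those of Tnp2 and Prm2 hold neither. Odf2, Smcp and Dbil5, which are not shown and ranked above Gapdhs, Akap4 and Hmgb4, held neither, and nor did the same stretch before the other annotated start of Gsg1 or of Akap4. Each run is the 120 bases just before an annotated start, from RefSeq on GRCm38.p6, 5′ to 3′ on the strand of the gene.
Prm1 (chr16:10796824-10796943, minus): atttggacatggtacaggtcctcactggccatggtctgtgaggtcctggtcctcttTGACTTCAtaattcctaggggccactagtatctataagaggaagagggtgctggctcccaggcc
Tnp1 (chr1:73015900-73016019, minus): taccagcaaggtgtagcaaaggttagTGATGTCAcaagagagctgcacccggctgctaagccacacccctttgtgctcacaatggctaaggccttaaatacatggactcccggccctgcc
Gsg1 (chr6:135254337-135254456, minus): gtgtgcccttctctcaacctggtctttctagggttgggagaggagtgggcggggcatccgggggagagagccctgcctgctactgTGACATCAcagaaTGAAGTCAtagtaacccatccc
Akap4 (chrX:7067395-7067514, plus): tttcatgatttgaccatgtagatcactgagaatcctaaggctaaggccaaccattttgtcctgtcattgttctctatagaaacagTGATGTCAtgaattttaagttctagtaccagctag
Hmgb4 (chr4:128260896-128261015, minus): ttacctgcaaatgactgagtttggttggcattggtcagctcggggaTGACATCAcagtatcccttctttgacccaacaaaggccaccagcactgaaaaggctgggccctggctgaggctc
Gapdhs (chr7:30743682-30743801, minus): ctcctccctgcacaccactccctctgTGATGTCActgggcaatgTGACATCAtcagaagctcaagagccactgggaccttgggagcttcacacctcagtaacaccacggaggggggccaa
Tnp2 (chr16:10788656-10788775, minus): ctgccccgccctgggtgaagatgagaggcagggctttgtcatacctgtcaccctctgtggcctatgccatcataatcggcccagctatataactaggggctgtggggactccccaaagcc
Prm2 (chr16:10792106-10792225, minus): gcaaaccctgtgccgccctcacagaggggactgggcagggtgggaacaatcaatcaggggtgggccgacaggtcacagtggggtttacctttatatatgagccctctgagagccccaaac

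Over the 250 bases before any annotated start, 11 of the 23 elongating spermatid genes with a RefSeq promoter held TGACGTCA, TGACTTCA or TGATGTCA on either strand, against 6.58% of all 16705 genes with such a promoter. The full element TGACGTCA itself was in none of these 23 promoters and in 2.29% of all. The other 2 strings were picked after the promoters were read, so their count in this list is no independent result. Without these 2, a count added after seeing the data, a string within 1 base of TGACGTCA, itself included, was in 3 of the 23 elongating spermatid promoters, in 4 of 21 round spermatid promoters, in 2 of 27 meiotic promoters, in 0 of 17 Sertoli cell promoters and in 8.39% of all promoters. The high share in the elongating spermatid list thus rests on the 2 picked strings. A match in letters is a description and does not show that a factor was bound.

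Germ cell lists of later stages had higher levels. The median member had 1.15 FPKM in the spermatogonial stem cell list (17 genes), 2.72 in the differentiating spermatogonia list (14 genes), 38.1 in the meiotic spermatocyte list (30 genes), 86.8 in the round spermatid list (25 genes) and 409 in the elongating spermatid list (27 genes). The median of all 23510 IDs was 2.51 FPKM. Of the 113 germ list members, 100 reached a mean of 1 FPKM and none was listed at 0 in all 3 libraries, beside 63.9% of all named genes at or above 1 FPKM. These lists and those below were chosen with earlier results of these data known. Their counts and medians are thus descriptions of the listed genes.

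The stem cell list was led by Uchl1 (32.7 ± 0.976 FPKM), Id4 (29.4 ± 1.32) and Etv5 (7.64 ± 0.345). Gfra1, the receptor part that receives GDNF, had 2.95, 3.39 and 2.83 FPKM, and Nanos2, a repressor of differentiation, had 0.06, 0 and 0.03. Dmrtb1, which marks the entry into meiosis, led the differentiating list with 296, 324 and 297 FPKM. The next members, Dmrt1 (10.6 ± 0.295) and Stra8 (9.05 ± 1.23), were much lower.

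Among meiotic genes, the testis chaperone Hspa2 had 540, 536 and 505 FPKM, and the synaptonemal complex gene Syce1 had 200, 204 and 203. Tex101, a surface protein of spermatocytes and later stages, had 175 ± 13.5 FPKM. The recombination genes were lower, with Spo11, which makes the DNA breaks of meiosis, at 30.03 ± 4.17, the recombinase Dmc1 at 7.41 ± 0.313 and Prdm9, which places the breaks, at 2.55 ± 0.276. Mei4 had 0.227 ± 0.0379 FPKM and was the only meiotic member under 1 FPKM. Round spermatid genes all reached 1 FPKM and were led by Spa17 (790 ± 58.4), Pgk2 (391 ± 53.6) and Acrbp (314 ± 10.01).

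**Figure D2:**
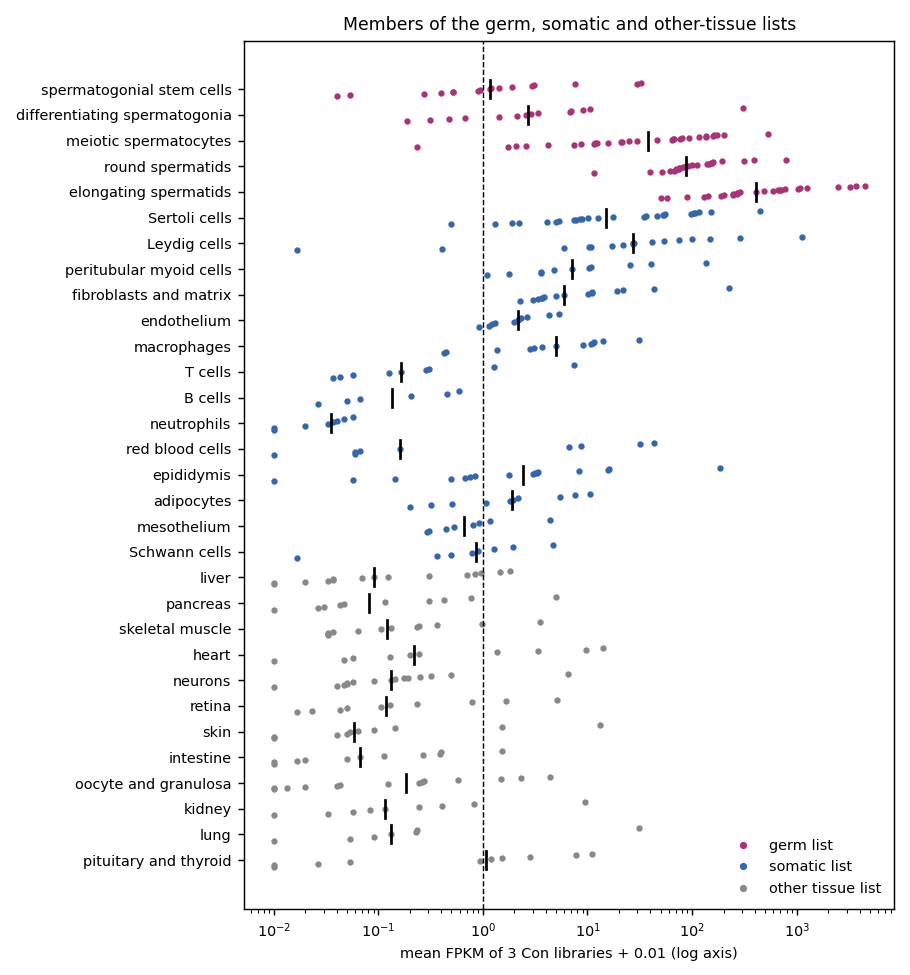
Mean FPKM (plus 0.01, log axis) of every measured member of the germ, somatic and other-tissue lists, 1 point per gene, with the median of each list as a black bar and 1 FPKM as a dashed line. Medians climb from 1.15 FPKM in the stem cell list to 409 FPKM in the elongating spermatid list, and those of most other-tissue lists lie between 0.05 and 0.21 FPKM.

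Nearly every member of the lists of sperm structures reached 1 FPKM, beside 63.9% of all named genes. All 21 genes of the outer dense fibre and fibrous sheath list reached 1 FPKM with a median of 261, led by Odf2, Ropn1l and Oaz3. All 12 genes of the mitochondrial sheath list did so with a median of 322, led by Smcp, Gpx4 (881 ± 39.1) and Cox8c (807 ± 30.9). Of 39 axoneme genes 38 reached 1 FPKM, led by Meig1, Tuba3b (837 ± 25.3) and Tuba3a (828 ± 31.2). The exception was Rsph4a, a radial spoke head gene of ciliated epithelia, with 0.14, 0.17 and 0.14 FPKM, while its relative Rsph6a had 98.3 ± 7.68. Of 36 acrosome and fusion genes 35 reached 1 FPKM, led by Crisp2, Adam5 (481 ± 13.5) and Adam3 (461 ± 15.8). The exception was Zp3r, an acrosomal matrix protein, with 0.34, 0.23 and 0.08 FPKM. All 19 genes of the sperm ion channel list reached 1 FPKM, led by Catsperz (354 ± 2.01), Atp1a4 (227 ± 30.7) and C2cd6 (170 ± 4.88).

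Germline RNA pathways were also broadly present. In the piRNA list, 19 of 20 genes reached 1 FPKM, beside 63.9% of all named genes. The list was led by Mael (885 ± 27.5), Gtsf1 (378 ± 14.1) and Ddx4 (227 ± 11.4). The exception was Piwil4, a PIWI protein of fetal germ cells, with 0.23, 0.14 and 0.22 FPKM, while Piwil1, the PIWI protein of spermatocytes and spermatids, had 137 ± 4.17. The RNA storage list was led by Ybx2, Pabpc1 and Ybx3. The haploid transcription list was led by Tcfl5 (162 ± 2.33), Gtf2a1l (161 ± 3.92) and Fhl5 (153 ± 4.78), and Crem itself had 70.0, 72.6 and 67.1 FPKM. Among the chromatin exchange genes outside the protamine group, H3f3a (459 ± 33.0) and Hmgb4 (409 ± 47.7) were high. Testis histones lay at both ends, with the linker histone H1f7 (258 ± 36.7) and the core histone variants H2al2a (197 ± 33.2) and H2bl1 (195 ± 25.3) high. The testis linker histone H1f6 (1.07, 0.62 and 1.43 FPKM) and the testis core histones H2bc1 (1.71 ± 0.427) and H2ac1 (1.54 ± 0.627) were low. All these values are for mRNA selected with oligo(dT) beads, and the effect of that selection on histone genes was not tested.

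The medians of all somatic lists lay below those of the meiotic and spermatid lists. They were 27.5 FPKM for Leydig cells, 14.9 for Sertoli cells, 7.17 for myoid cells, 5.90 for fibroblasts and matrix and 5.04 for macrophages. These were above the medians of the stem cell (1.15) and differentiating spermatogonia (2.72) lists, and the other somatic medians were below 2.72. Clu, a secreted chaperone, led the Sertoli cell list with 467, 463 and 406 FPKM, followed by Ctsl (153 ± 7.69) and Cst12 (118 ± 5.97). Sox9, the defining Sertoli cell factor, had 4.96 ± 0.330 FPKM, and Amh, a hormone of the immature Sertoli cell, had 2.55, 2.13 and 1.96. Of 26 Sertoli genes 25 reached 1 FPKM, beside 63.9% of all named genes. Defining genes of Sertoli and Leydig cells were thus present in all 3 libraries, which are labelled testis although the extraction notes name sperm.

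Leydig cell genes followed the hormone. After Insl3 came Cyp17a1, which makes androgens from progestogens, with 277, 342 and 240 FPKM, and Cyp11a1, the first enzyme of steroid synthesis, with 138, 169 and 136. Hsd3b6, the isozyme of mature Leydig cells, had 27.5 ± 9.50 FPKM and Hsd3b1 had 74.5 ± 10.7. Summed over its 17 genes the Leydig list had 1803, 2303 and 1824 FPKM, highest in Con 2. The wider list of 21 cholesterol and androgen synthesis genes was all at or above 1 FPKM, with a median of 27.0, beside 63.9% of all named genes at or above 1 FPKM.

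The remaining somatic lists were smaller. Actg2 (137 ± 17.6), Myl9 (40.6 ± 2.06) and Acta2 (25.3 ± 1.30) led the myoid list. Actg2 alone had 138, 119 and 154 FPKM of list sums of 250, 230 and 257. Its order of Con 2 below Con 1 below Con 3 was found in 3 of the 11 members. The part of other cell types in its value was not tested. Cldn5 (5.33 ± 0.306), Egfl7 (4.23 ± 0.846) and Flt1 (2.63 ± 0.188) led the endothelial list, whose 11 genes summed to 24.8 to 26.3 FPKM. Lyz2 (30.8 ± 9.12), C1qa (14.0 ± 2.38) and C1qb (11.6 ± 0.543) led the macrophage list. Markers of lymphocytes and neutrophils were mostly low, with all 6 B cell genes and all 8 neutrophil genes under 1 FPKM, and the neutrophil genes Ly6g and Elane listed at 0 in all 3 libraries. Of the 9 T cell genes 2 reached 1 FPKM, Cd3d at 7.88, 6.82 and 7.40 FPKM and Cd8b1 at 1.27 ± 0.265, beside 0.153 ± 0.0153 for Cd3e, 0.0267 ± 0.0231 for Cd3g and 0.0333 ± 0.0306 for Lck. Of the interferon response list 6 of 14 genes reached 1 FPKM, led by Ifi27 (19.5 ± 1.06). Among all named genes 63.9% reached 1 FPKM.

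The receptors at the centre of the study were low in Con testis. Chrm5, the M5 receptor, had 0.21, 0.19 and 0.21 FPKM. Chrm1 had 0.15, 0.09 and 0.15, and Chrm3 had 0.04, 0.05 and 0.04. Chrm4 was the highest muscarinic receptor with 2.91, 2.75 and 3.09 FPKM, above every library of the other receptors, and Chrm2 had at most 0.02. Of the 15 cholinergic genes 3 reached 1 FPKM, beside 63.9% of all named genes. The list was led by the nicotinic subunit Chrnb4 with 36.8, 53.5 and 30.4. Chat, the enzyme that makes acetylcholine, had 0.01 FPKM in Con 1 and was listed at 0 in Con 2 and Con 3. In the list of cell junction genes, 21 of 23 reached 1 FPKM, beside the same 63.9%. It was led by Nectin3 (172 ± 3.96), Cldn11 (54.8 ± 5.82) and Ctnnb1 (46.8 ± 2.66).

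Many genes of basic metabolism have a second copy used by male germ cells, and the gene-level table allowed 58 such pairs to be compared, though not transcripts of 1 gene. Some of the germ cell copies are used elsewhere as well, such as Pgam2 in muscle. The pairs were picked for known testis use, so their direction is a description. The germ cell copy had the higher FPKM in all 3 libraries in 44 pairs, the broadly expressed copy did in 10, and 4 were mixed. The germ cell copy was over 4-fold higher in the means in 32 pairs. With 3 libraries an exact two-sided sign-flip test of a pair cannot go below p = 0.25, so none was run.

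**Figure D3:**
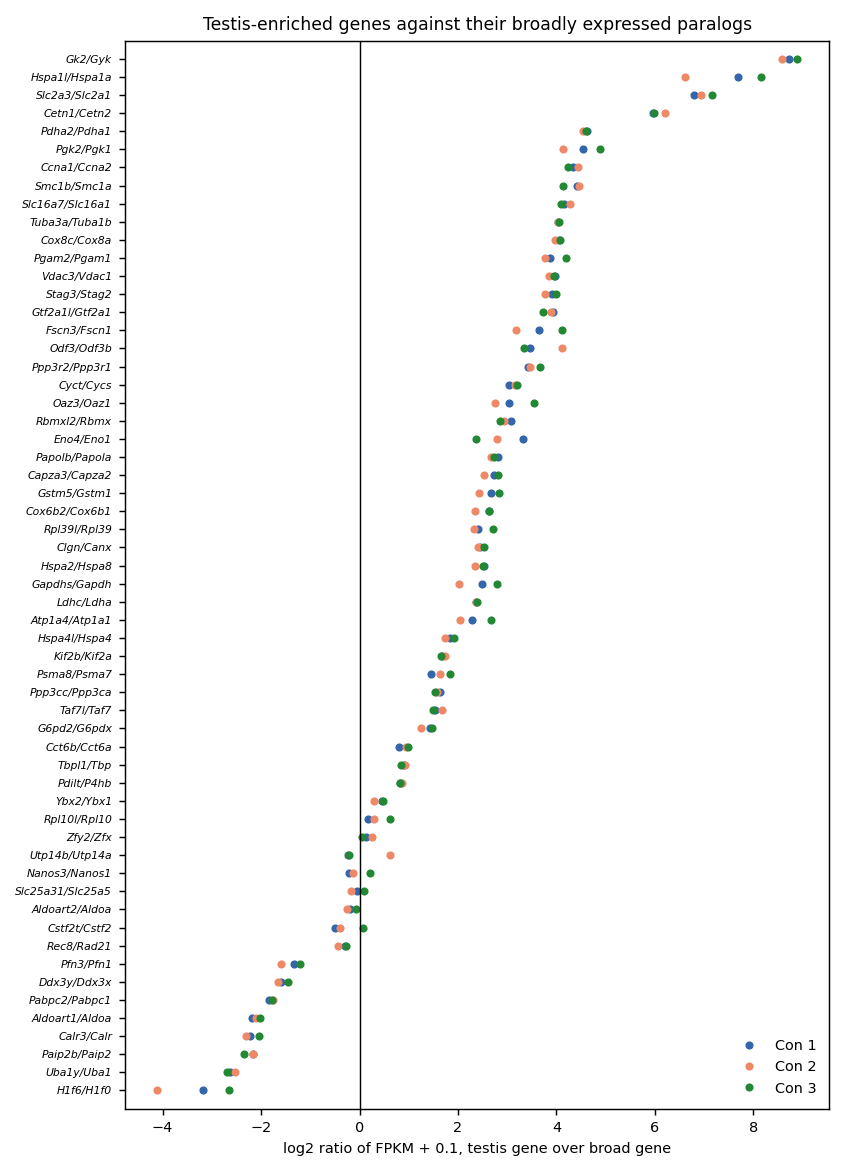
Log2 ratio of FPKM + 0.1, germ cell copy over broadly expressed copy, for 58 pairs of paralogs, with 1 coloured point per Con library. Points right of the line at 0 have the germ cell copy higher, which held in all 3 libraries for 44 pairs, from Gk2/Gyk at the top to H1f6/H1f0 at the bottom.

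Pairs of energy metabolism included the widest gap. Gk2, a glycerol kinase gene, had 367 ± 18.3 FPKM and its X-linked relative Gyk (Gk in RefSeq) 0.767 ± 0.136, a log2 ratio of 8.74 ± 0.16 (SD, n = 3). The glucose transporter Slc2a3 exceeded Slc2a1 by 6.96 ± 0.18 on the log2 scale, and the lactate transporter Slc16a7 exceeded Slc16a1 by 4.18 ± 0.09. Along glycolysis, Pgk2 exceeded Pgk1 by 4.52 ± 0.38, Pgam2 exceeded Pgam1 by 3.94 ± 0.22, Eno4 exceeded Eno1 by 2.83 ± 0.48 and Gapdhs exceeded Gapdh by 2.44 ± 0.39. Ldhc exceeded Ldha by 2.37 ± 0.02, although Ldha itself had 561 ± 4.16 FPKM. The pyruvate dehydrogenase subunit Pdha2 exceeded Pdha1 by 4.58 ± 0.04, and the respiratory chain copies Cox8c, Cyct and Cox6b2 exceeded Cox8a, Cycs and Cox6b1 by 4.03 ± 0.06, 3.13 ± 0.08 and 2.53 ± 0.17. Among the glycolysis pairs aldolase was the exception, with Aldoa (193 ± 5.79 FPKM) above both Aldoart2 (171 ± 12.7) and Aldoart1 (44.8 ± 1.84) in every library. Of the 50-base words of Pgk1, Pgam1, Gapdh, Eno1 and Cycs, between 24.7% and 53.9% also occur in other genes. These are mainly Pgk1-rs7, Pgam1-ps2, Gm7336, Eno1b and Gm10053, so the values of these broad copies are uncertain.

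Some pairs of chaperones and of the cytoskeleton were also far apart. Hspa1l exceeded Hspa1a, the heat-inducible gene, by 7.49 ± 0.79, with the largest SD of the 58 pairs, and by 6.01 with a pseudocount of 1 FPKM. Hspa2 exceeded Hspa8 by 2.46 ± 0.10. Cetn1 exceeded Cetn2 by 6.05 ± 0.13, Tuba3a exceeded Tuba1b by 4.04 ± 0.02 and Clgn exceeded Canx by 2.46 ± 0.06. Other genes share 66.7% of the 50-base words of Tuba1b, 33.6% of those of Tuba3a, 38.6% of those of Hspa8 and 60.3% of those of Hspa1a, so the ratios that hold them are uncertain too. The cohesins Smc1b and Stag3 exceeded Smc1a and Stag2 by 4.34 ± 0.18 and 3.89 ± 0.12, whereas Rec8 was below Rad21 by a log2 ratio of -0.33 ± 0.09. Gtf2a1l, Papolb and Tbpl1 exceeded Gtf2a1, Papola and Tbp by 3.85 ± 0.10, 2.74 ± 0.07 and 0.89 ± 0.04. The broad copy stayed higher for Calr3/Calr (-2.19 ± 0.13), Pabpc2/Pabpc1 (-1.79 ± 0.04), Paip2b/Paip2 (-2.22 ± 0.11), Pfn3/Pfn1 (-1.37 ± 0.20), H1f6/H1f0 (-3.32 ± 0.74), Ddx3y/Ddx3x (-1.57 ± 0.11) and Uba1y/Uba1 (-2.62 ± 0.09). In Utp14b/Utp14a, Nanos3/Nanos1, Slc25a31/Slc25a5 and Cstf2t/Cstf2 the libraries fell on both sides of 0. Other genes also share 47.7% of the 50-base words of Uba1y and 33.8% of those of Slc25a5, so their ratios are uncertain as well.

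In 13 pairs the broad copy lies on the X chromosome, which is silenced in meiosis, and the germ cell copy on an autosome. The germ cell copy was higher in all 3 libraries in 10 of these, with a median log2 ratio of 2.95. Among the 41 pairs with both copies on autosomes it was higher in 32, with a median of 2.46.

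The X chromosome had few very abundant genes. Of its 951 genes 64.4% reached 1 FPKM, beside 64.1% of 19983 autosomal genes. Only 5 of them, or 0.526%, reached 100 FPKM, beside 4.79% of autosomal genes and at least 3.39% on each autosome. The mean FPKM per X-linked gene was 7.79, while autosomes lay between 17.3 and 36.0. The 5 were Akap4, the main fibrous sheath protein, with 498, 403 and 566 FPKM, then Tmsb4x (177 ± 17.7), Cypt1 (143 ± 5.503), Prdx4 (114 ± 3.07) and Tsga8 (110 ± 20.3). The next highest were H2al1g (95.8 ± 10.7), H2ap (89.25 ± 12.9) and Pgrmc1 (83.3 ± 5.68). How reads were split among similar copies of X-linked genes is not given in the sources used here, so the count at 100 FPKM may depend on it. On the Y chromosome 40.2% of 209 genes reached 1 FPKM and none reached 100. Its highest genes were Gm20815 (96.9 ± 12.1), Eif2s3y (30.8 ± 2.59), Gm21409 (24.9 ± 2.87), Gm20810 (23.5 ± 3.496) and Gm20918 (21.7 ± 3.28), and all but Eif2s3y belong to families of many similar copies, where reads can be split. Sry, the sex-determining gene, had 0.10, 0.18 and 0.03 FPKM.

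**Figure D4:**
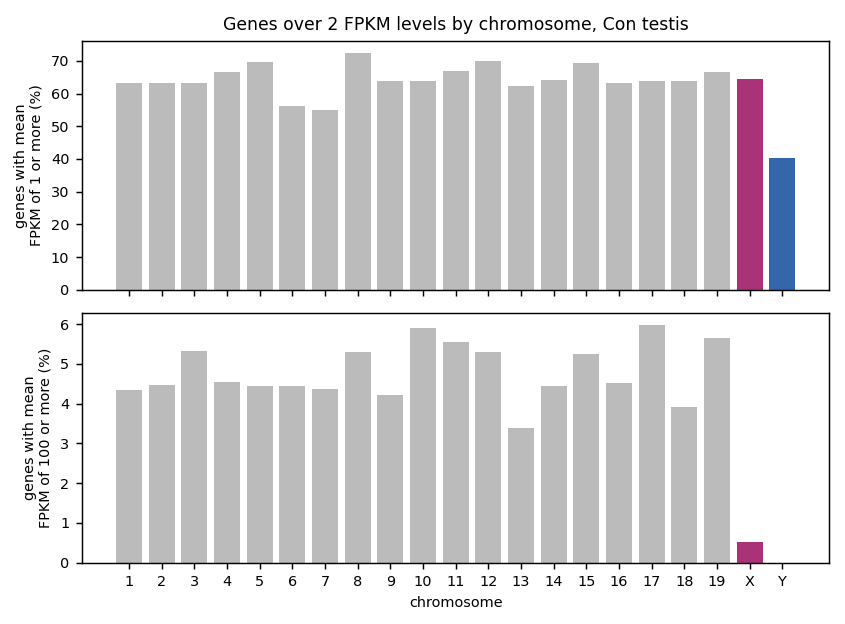
Percent of named genes on each chromosome with a mean FPKM of 1 or more (top) and of 100 or more (bottom), as bars from 0, with the X chromosome in purple and the Y chromosome in blue. The X chromosome stands level with the autosomes at 1 FPKM (64.4%) and below all of them at 100 FPKM (0.526%).

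Genes of other tissues were mostly under 1 FPKM. Among all named genes 63.9% reached 1 FPKM and 6.71% were listed at 0 in all 3 libraries. Of 133 members of 12 other-tissue lists, 24 reached 1 FPKM and 15 were listed at 0 in all 3 libraries. Those at 0 were Serpina1a and Cyp3a11 of liver, Gcg of pancreas, Nppa of heart, Neurod6 of neurons, Krt71 and Krt25 of skin, Apoa4 and Tff3 of intestine, Zp2 and Oosp1 of oocytes, Pvalb of kidney, Scgb1a1 of lung, and Prl and Fshb of pituitary. At the depth estimated above, 0 in a library means only that no fragment was assigned. The exceptions that were expressed included Foxj1, the ciliogenesis factor of airway and other ciliated cells, with 34.3, 35.7 and 23.9 FPKM. Tnni3 (16.9, 13.5 and 11.7) and Myh6 (10.5, 10.01 and 8.51) of heart, Dsg1a (13.4, 14.1 and 11.8) of skin, Lhb (12.7, 11.4 and 9.36) of pituitary and Aqp2 (9.12, 12.5 and 7.02) of kidney were also above most members of their lists.

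In all, 1762 IDs were listed at 0 in all 3 libraries, of which 1419 are named, or 6.71% of named genes. Chemosensory receptors made up 41.7% of these, as 592 of 1107 such genes were at 0. Among olfactory receptors (Olfr) 444 of 813 were at 0 and 13 reached 1 FPKM. The pheromone receptors Vmn1r and Vmn2r had 93 of 154 and 43 of 120 at 0, and the bitter taste receptors (Tas2r) 12 of 20. Keratins had 12 of 52 at 0 and 3 at or above 1 FPKM, which were Krt88 (74.5, 76.5 and 58.8 FPKM), Krt8 (4.41 ± 0.408) and Krt10 (1.497 ± 0.0551). Homeobox genes of the Hox clusters had 2 of 38, or 5.26%, at 0, near the 6.71% of named genes. A mean under 0.1 FPKM was found for 36.8% of them, beside 18.1% of named genes. Of the 38, 7 reached 1 FPKM, beside 63.9% of all named genes, with Hoxa4 (83.2, 84.2 and 85.1) and Hoxd8 (33.0, 35.4 and 30.6) highest. Beta-defensins had 9 of 35 at 0 and 15 at or above 1 FPKM, led by Defb19 with 209, 213 and 222 FPKM. The highest olfactory receptor was Olfr701 (7.21 ± 0.571) and the highest pheromone receptor was Vmn2r111 (10.3 ± 0.658).

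Differences between the Con libraries were small for most genes and large for a few programmes. Among 9463 IDs with a mean of 5 FPKM or more, the median SD of log2(FPKM + 1) was 0.08, and 124, or 1.31%, exceeded 0.5. The elongating spermatid list varied most among germ cell lists, with summed FPKM of 23800, 17705 and 30557 in Con 1, Con 2 and Con 3. The meiotic list had 2258, 2334 and 2258 and the round spermatid list 3594, 3548 and 3635. Of the 27 elongating spermatid genes 23 had the order Con 2 below Con 1 below Con 3, beside 12.8% of all IDs at or above 1 FPKM. This order was first seen in the protamine and transition protein genes, and without those 4 it held for 19 of 23, with sums of 9944, 8560 and 11944 FPKM. The list was chosen with earlier results of these data known, so both counts are descriptions. Of 963 named genes with a mean of 100 FPKM or more, 45 had an SD above 0.3, and 39 of those followed the same order. These 39 hold Prm1, Prm2, Tnp1 and Tnp2 themselves and other members of the elongating spermatid list, so their count is no independent result. Among such members were Spem1 (270, 184 and 355 FPKM), Tssk6 (132, 88.9 and 167), Odf1 (680, 545 and 861) and Oaz3 (1016, 854 and 1332). Ratios within the group varied less than the genes did. Prm1 had 1.87, 1.77 and 1.81 times the FPKM of Tnp1, Prm1 had 1.49, 1.54 and 1.28 times that of Prm2, and Tnp1 had 0.644, 0.637 and 0.699 times that of Tnp2. The SD of these ratios on the log2 scale was 0.04, 0.14 and 0.07, beside 0.43 to 0.64 for the 4 genes. Summed red blood cell markers had the same order (87.0, 58.9 and 127 FPKM) and the Leydig list was highest in Con 2. Their part in the result was not tested.

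**Figure D5:**
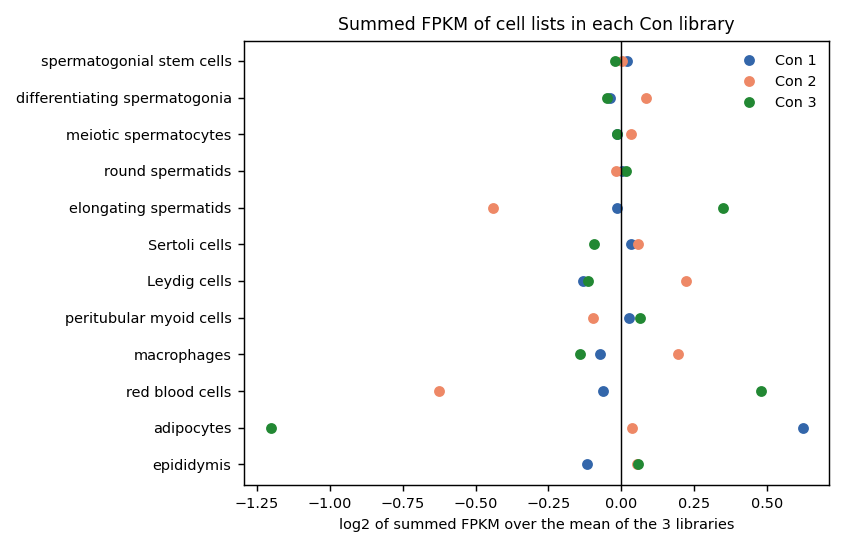
Summed FPKM of 12 cell lists in each Con library, as the log2 of its ratio to the mean of the 3 libraries. Con 2 and Con 3 lie on opposite sides for elongating spermatids (17705 and 30557 FPKM) and red blood cells (58.9 and 127 FPKM), adipocyte genes are spread most, and meiotic and round spermatid sums lie close together.

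The 10 named genes with the largest spread were of other kinds. Gpx5 (0.27, 43.3 and 4.64 FPKM) and Spag11b (0.07, 27.2 and 3.41), both secreted by the caput epididymis, were highest in Con 2. Crisp1, also an epididymal gene, went the other way with 32.3, 2.86 and 12.2 FPKM. The 16 epididymis genes summed to 222, 251 and 251 FPKM, with Cst8 alone at 166, 168 and 217 and Spint4 listed at 0 in all 3, and the part of other tissue in these values was not tested. Car3 (18.1, 10.4 and 1.92) and Fabp4 (19.2, 10.5 and 2.16), both abundant in fat, were lowest in Con 3, and the 10 adipocyte genes summed to 48.7, 32.5 and 13.8 FPKM. Haspin, a histone kinase gene of germ cells, had 2.95, 79.6 and 10.01 FPKM, and Park7 had 1.95, 48.2 and 7.11. Rps28 had 119, 23.0 and 7.84, Nrm had 6.21, 12.2 and 0, and Gm1993 had 1.55, 13.4 and 10.7.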

How the data were processed

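Whole testis RNA from 3 Con samples was analysed. Per the study's methods, the authors isolated RNA with TRIzol, selected mRNA with oligo(dT) beads, sequenced it on an Illumina HiSeq and aligned reads with SOAPaligner; the submitters' processing notes name the build mm10. The authors deposited 1 table of FPKM per gene ID for all samples, and its gene models and counter are not given in the sources used here. FPKM are not counts, so no count test was used, and no groups were compared. IDs were matched to RefSeq (GRCm38.p6) by gene number. Log2 values used a pseudocount of 1 and pair ratios 0.1. Shared 50-base words were counted in GENCODE transcripts. The number of columns with no mapped sample was 0.

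Python 3 scripts with pandas and numpy computed all values, and the spread and ratio functions were tested on simulated data. The members, gene lists and pairs were chosen with earlier results of these data known. Genes were named by a rule. It took the 30 of highest mean, the top 3 and the absent members of a list and both genes of a pair. It also took the 10 of largest spread among those at 5 FPKM or more, and the 5 highest on X and on Y. Not all of the 58 pairs, nor all of the lists, are printed. Further members were named for their role or as exceptions after their values were seen. A few genes, and the pairs that hold them, are not reported here. Alternatives left out each replicate, rescaled each library to the same total, and changed thresholds and pseudocounts.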

Additional observations from a re-analysis of the deposited data

How the results depend on the processing

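No paired analysis was possible because no result comes from a test. The alternatives left the ranking, the germ and programme list counts and the count of 44 pairs within 1.5 times or within 1 SD of the values above, and no pair that lay on 1 side in all 3 libraries changed sign. The size of single log2 ratios moved by more than 1 SD in 18 of 290 alternatives, nearly all with a pseudocount of 1 FPKM, where Gk2/Gyk was 7.70 instead of 8.74, Hspa1l/Hspa1a 6.01 instead of 7.49 and H1f6/H1f0 -2.54 instead of -3.32. At a threshold of 5 FPKM 70 somatic and 9 other-tissue members remained above it, and at 0.1 FPKM 69 other-tissue members did. Counting a mean under 0.1 FPKM as absent gave 4477 IDs instead of 1762. Leaving out each replicate gave between 83 and 206 IDs with an SD above 0.5, highest without Con 1, and a lowest correlation between 0.992 and 0.996. With means of 1 FPKM or more, 290 IDs passed that SD. The share of summed FPKM of named genes on the X chromosome was 1.60%, and 1.85% without the 100 top genes. The elongating spermatid sums differed by 1.73-fold between the highest and lowest library and by 1.40-fold without Prm1, Prm2, Tnp1 and Tnp2, a choice made after seeing the data. Depth limits genes under about 0.1 FPKM, where a few fragments decide the value.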

Other observations

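Ribosomal protein genes were abundant but uneven. The 81 genes with such symbols held 3.14% of summed FPKM, with a median of 190 FPKM, and 54 reached 100. At the low end, Rps6 had 4.88, 4.42 and 4.48 FPKM, Rps18 had 5.76, 6.32 and 6.86, and Rpl3 had 7.66, 5.54 and 7.31, although every cell uses them. These genes have many processed pseudogenes, and how the deposited table treated reads shared with them is not given in the sources used here. The germ cell copies Rpl10l and Rpl39l exceeded Rpl10 and Rpl39 by 0.36 ± 0.24 and 2.48 ± 0.21 on the log2 scale.

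Heat shock genes were split between a high and a low group. Tcp1, a chaperonin subunit, had 800 ± 11.8 FPKM, Hsp90aa1 727 ± 53.3, Hspb9 553 ± 40.4 and Dnajb3 544 ± 46.5. The inducible genes Hspa1a (0.36, 0.59 and 0.30) and Hspa1b (1.03, 1.06 and 0.87) were near 1 FPKM or below in every library. They share 60.3% of the 50-base words of Hspa1a with other genes, mainly each other, so their split is uncertain.

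A total of 23 IDs with a mean of 2 FPKM or more were listed at 0 in 1 or 2 of the libraries, and 5 of them are named: Nrm, Defb18, Defb20, Gm21469 and Tmem254c. Defb18 had 0, 12.6 and 0.47 FPKM, and Defb20 had 0, 8.88 and 1.16.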
